A study of Mus musculus with 22 samples.

Results

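The DNA replication genes described here are 39 named genes, out of 17541 genes in the count files, whose products copy chromosomal DNA or supply its nucleotides. They were chosen by name and by function, not by a measured value, and all 39 were found in the files. The tissue was mouse esophageal epithelium, read by inDrop single cell RNA sequencing, where the droplet gives a cell its barcode and each captured transcript a unique molecular identifier (UMI). All mice were C57BL6. The 6 control mice comprised 3 young mice of 3 to 4 months and 3 old mice of 18 to 20 months. Mice with eosinophilic esophagitis (EoE) numbered 4, of which 2 were young (6 to 8 weeks) and 2 were old (19 to 20 months). They were sensitized through the skin of the ears with the vitamin D analog MC903 and ovalbumin and then given oral ovalbumin, in a protocol of 32 days. The 3 mice with esophageal squamous cell carcinoma (ESCC), aged 8 to 10 months, drank the carcinogen 4NQO for 16 weeks and plain water for 8 weeks more. In every group the epithelium was peeled from the muscle as a sheet, and the labels name no sort for tumor cells, so an ESCC sample can hold any cell of the treated epithelium.

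Replication begins at origins that are licensed by Cdc6 and Cdt1, which load the ring of Mcm2 to Mcm7. The ring becomes the active helicase when Cdc45 and the GINS complex join it. Polymerase alpha with its primase lays primers, replication factor C loads the Pcna clamp, polymerases delta and epsilon extend the strands, replication protein A coats single strands, and Fen1 and Lig1 join Okazaki fragments, while ribonucleotide reductase, thymidylate synthase and dUTPase set the supply of nucleotides. Many of these genes are transcribed from late G1 into S phase under E2F factors. In stratified squamous epithelium, cell division is largely kept to the basal and first suprabasal layers, and Krt5 marks the basal cell while Krtdap marks cells that differentiate.

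The letters to which E2F factors bind are shown first, because they are a feature of the genes that the choice of names did not use. RefSeq promoter windows of GRCm38.p6, from 250 bases before to 50 bases after a gene start, were found for 32 of the 39 genes. The letters TTTCCCGC, TTTGGCGC, TTTCGCGC and TTTGCCGC were searched on either strand, and overlapping matches were joined. At least 1 match was found in 13 of the 32 genes (40.6%), against 2.61% of all 27025 genes in the table (2.26% of 32851 windows). The 4 helicase windows below hold such letters in capitals, and Pola1 is added because it was called lower in Krt5-rich cells of ESCC mice. The Mcm2 window and a further Mcm7 window (chr5:138171217-138171516) held no match, and Mcm4 had no window. Each is written 5′ to 3′ on the strand of its gene, and each comes from RefSeq on GRCm38.p6.
Mcm3, chr1:20820263-20820562, minus strand: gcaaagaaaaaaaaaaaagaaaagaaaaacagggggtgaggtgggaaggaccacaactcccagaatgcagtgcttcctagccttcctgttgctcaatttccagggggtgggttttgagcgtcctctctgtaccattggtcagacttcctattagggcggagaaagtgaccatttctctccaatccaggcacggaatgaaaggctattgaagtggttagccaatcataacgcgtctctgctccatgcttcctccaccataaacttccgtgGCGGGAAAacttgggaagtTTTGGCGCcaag
Mcm5, chr8:75109259-75109558, plus strand: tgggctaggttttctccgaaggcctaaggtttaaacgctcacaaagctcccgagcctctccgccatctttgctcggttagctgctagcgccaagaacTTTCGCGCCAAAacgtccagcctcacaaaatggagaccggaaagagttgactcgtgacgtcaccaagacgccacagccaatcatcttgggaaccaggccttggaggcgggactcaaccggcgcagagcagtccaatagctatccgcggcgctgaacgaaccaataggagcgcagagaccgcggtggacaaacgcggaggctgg
Mcm6, chr1:128359656-128359955, minus strand: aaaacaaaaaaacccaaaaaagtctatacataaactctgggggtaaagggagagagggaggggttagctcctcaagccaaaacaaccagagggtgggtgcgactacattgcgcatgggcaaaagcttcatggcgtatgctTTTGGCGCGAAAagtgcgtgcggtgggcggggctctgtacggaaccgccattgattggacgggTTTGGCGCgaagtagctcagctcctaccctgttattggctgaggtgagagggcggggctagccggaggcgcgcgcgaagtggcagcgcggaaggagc
Mcm7, chr5:138171834-138172133, minus strand: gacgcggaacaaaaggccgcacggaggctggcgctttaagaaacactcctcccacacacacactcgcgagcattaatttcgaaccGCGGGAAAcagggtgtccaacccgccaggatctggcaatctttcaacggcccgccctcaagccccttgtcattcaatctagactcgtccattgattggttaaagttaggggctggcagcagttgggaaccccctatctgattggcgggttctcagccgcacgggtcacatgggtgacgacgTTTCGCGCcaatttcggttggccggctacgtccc
Pola1, chrX:93632106-93632405, minus strand: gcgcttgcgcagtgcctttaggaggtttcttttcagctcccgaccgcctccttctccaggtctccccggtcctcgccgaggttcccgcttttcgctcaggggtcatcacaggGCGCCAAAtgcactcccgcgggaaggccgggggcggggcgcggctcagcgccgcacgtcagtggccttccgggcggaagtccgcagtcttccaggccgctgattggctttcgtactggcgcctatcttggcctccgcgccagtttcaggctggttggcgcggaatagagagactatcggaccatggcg
In the Mcm3 window the matches start 19 and 38 bases after the gene start, and in the Mcm6 window they start 110 and 47 bases before it. Another list, of 51 further replication genes, had such letters in 14 of 39 genes in the table (35.9%), whereas a list of 22 mitosis genes had them in 1 of 20 (5.0%). The mitosis genes instead held TTTGAA, the letters of the cell cycle homology region, in 75.0% of genes, against 15.6% of the replication genes and 20.2% of all genes, and CCAAT in 90.0%, against 62.5% and 41.1%. These matches describe letters and not bound sites. The Pola2 window held no E2F match and no CCAAT.

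Depth set how firmly each value can be read. The cells used had 250 to 3500 genes and 100 to 9500 UMIs, and 31 cells called non-epithelial were left out. They held 111043 to 427752 UMIs per mouse in controls, 1240388 to 2103543 in ESCC, and 6245 to 41909 in EoE, where 143 of the 1498 cells not called non-epithelial lay within these limits. The replication genes together had 2254 UMIs in controls, 9493 in ESCC and 110 in EoE. Control and ESCC mice gave 2 libraries each, which were summed. Of the 9 pairs of libraries from a single mouse, each shared 4 to 52 cell barcodes, and cells with a shared barcode had a median correlation of 0.791 between libraries, against 0.482 for other cells, so that the libraries of a mouse are not separate samples. The larger summed level of a mouse's libraries was 1.05 to 1.36 times the smaller. Values are counts per 1000000 UMIs (CPM) after scaling by trimmed means (TMM), and tests are edgeR quasi-likelihood tests on UMI sums per mouse with Benjamini-Hochberg adjustment over all genes tested, with an adjusted p below 0.05 as the call. Counts of a gene are 3′ biased and not per length, so levels are compared between mice and not between genes.

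With all epithelial cells of a mouse summed, 13 replication genes were called higher in ESCC than in control mice and none was called lower, led by Mcm7 (log2 fold change 2.21), Rpa2 (2.08) and Mcm4 (1.59). The summed level of the 39 genes was 1866 CPM in control 2, 1451 in control 3, 1371 in control 1, 1250 in control 4, 1224 in control 5 and 1108 in control 6. It was 1790 CPM in ESCC 8M, 2393 in ESCC 17F and 2256 in ESCC 17M. ESCC 17F and 17M lay above every control mouse and ESCC 8M lay below control 2, so the groups overlapped. The means were 1378 ± 267 CPM (SD, n = 6) in controls and 2146 ± 316 (SD, n = 3) in ESCC. Scaled by total UMIs alone the ESCC mean was 1828, which is not on the scale of that control mean. By total UMIs, single libraries ran from 953 to 1976 CPM in controls and from 1285 to 2214 in ESCC, with overlap. In such sums, more cells of a type and more RNA per cell cannot be told apart. In EoE the sum was 1129, 1075, 600.3 and 1003 CPM in mice 9, 10, 11 and 12, but 68 of the 110 UMIs behind it belonged to the single gene Pola2.

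**Figure D1:**
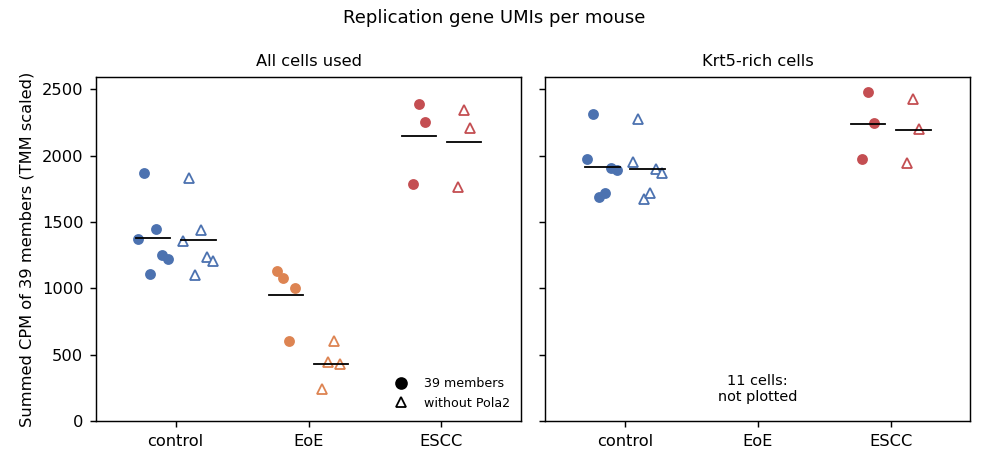
Summed level of the 39 replication genes in CPM for each mouse (filled circles) and of the same genes without Pola2 (open triangles), in all cells used and in Krt5-rich cells, with the group mean as a line; the 11 Krt5-rich EoE cells are not plotted. In all cells ESCC 17F (2393) and 17M (2256) lie above the highest control (1866) and ESCC 8M (1790) lies below it, while in Krt5-rich cells control mice reach 2316 and overlap ESCC mice at 1979 to 2481.

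By gene, 24 of the 39 passed the filter on low counts, and 13 of them were called higher and 0 lower in ESCC, where 17.8% of all 5866 genes tested were called higher and 16.8% lower. The median log2 fold change was 0.71 over the 24 genes and 0.01 over all genes, and 21 of the 24 were positive. Since a gene can pass the filter through the ESCC mice alone, the fit was repeated with no filter, and 15 of 39 were then called higher and 0 lower, where 10.9% of 15110 genes were called higher and 7.26% lower. The genes added were Gins4, a GINS subunit (log2 fold change 1.41, adjusted p = 0.0018), and Ung, which removes uracil from DNA (1.67, adjusted p = 0.0004).

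All 6 helicase genes were called higher in ESCC. Mcm7 was at 5.01 to 46.8 CPM in control mice (median 13.6) and at 68.2, 69.6 and 59.7 CPM in ESCC 8M, 17F and 17M. Every ESCC mouse was above every control, and the log2 fold change was 2.21 (SE 0.34, adjusted p = 9.1e-06). Mcm4 was at 29.5 to 87.9 CPM in controls (median 47.8) and at 90.6, 168 and 177 CPM in the same ESCC mice. Those groups did not overlap either, although ESCC 8M lay close to control 2, and the log2 fold change was 1.59 (SE 0.25, adjusted p = 9.3e-06). Mcm3 rose by 1.18, Mcm5 and Mcm6 by 1.12 and Mcm2 by 0.97 on the log2 scale, with adjusted p from 0.00016 to 0.0061. Mcm3 in ESCC 8M (64.3 CPM) lay below control 2 (87.9), and Mcm5 in ESCC 8M (115) lay below control 3 (122). The 6 genes together ran from 209.9 to 420.1 CPM in controls and from 478 to 738 in ESCC.

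The partners that turn the ring into a helicase were rarely counted. Gins1, Gins2, Gins3, Gins4 and Cdc45 had 80 UMIs in all 6 control mice and did not pass the filter. Their sum was 28.1 to 55.3 CPM in controls and 90.3 to 96.1 CPM in ESCC, and the groups did not overlap. Of the licensing genes, Cdt1 was at 12.9 to 37.4 CPM in controls (median 20.1) and at 21.4, 41.8 and 53.5 CPM in ESCC 8M, 17F and 17M. ESCC 8M lay inside the control range and the other ESCC mice above it, with a log2 fold change of 0.96 (SE 0.33, adjusted p = 0.024). Cdc6 had 6 UMIs in controls and 50 in ESCC and was not called without the filter (adjusted p = 0.064).

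Among the genes of nucleotide supply, both reductase genes were called and the others were not. Rrm2, the limiting subunit of ribonucleotide reductase, was at 7.37 to 58.6 CPM in controls (median 32.6) and at 63.3, 95.5 and 106 CPM in ESCC 8M, 17F and 17M. The ESCC mice all lay above the controls, and the log2 fold change was 1.40 (SE 0.28, adjusted p = 0.0002). Its partner Rrm1 rose by 0.70 (SE 0.20, adjusted p = 0.0071), with controls at 84.2 to 200.3 CPM and ESCC mice at 194 to 222. For Rrm1, ESCC 8M lay below control 2. Tyms, which makes thymidylate, had a log2 fold change of 0.31, and Dut, which clears dUTP, of -0.07. Neither was called, and the ESCC values of Dut (87.7 to 125 CPM) lay within those of controls (46.8 to 137).

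Among genes of the fork, some subunits of a complex were called and others were not, and the difference between subunits was not tested. Rpa2, the middle subunit of replication protein A, was at 6.46 to 28.1 CPM in controls (median 12.6) and at 37.0, 70.3 and 53.0 CPM in ESCC 8M, 17F and 17M. No ESCC mouse lay within the control range, and the log2 fold change was 2.08 (SE 0.34, adjusted p = 1.4e-05). Its partners Rpa1 (0.06) and Rpa3 (-0.19) were not called. The same held for polymerase alpha and primase. Pola2, the accessory subunit, was called higher (1.49, SE 0.38, adjusted p = 0.003), whereas the catalytic subunit Pola1 (-0.29) and the primase subunits Prim1 (0.37) and Prim2 (0.51) were not. Pcna, the sliding clamp, rose by 0.73 (SE 0.21, adjusted p = 0.0086) while none of the loader genes Rfc1, Rfc2 and Rfc5 (0.20 to 0.27) was called. For Pcna, ESCC 8M (113 CPM) and 17M (115) lay below control 2 (127). Lig1, which seals fragments, rose by 1.09 (SE 0.25, adjusted p = 0.00089), with controls at 16.1 to 48.9 CPM and ESCC mice at 65.3, 68.9 and 79.7. Pold2, the only polymerase delta or epsilon gene among the 39 that was tested, had a log2 fold change of 0.27. The 15 genes that did not pass the filter were, beside the GINS genes, Cdc45, Cdc6, Ung and Fen1, the loader genes Rfc3 and Rfc4, the polymerase genes Pold1, Pold3 and Pole, Slbp, which binds histone transcripts, and Uhrf1, which carries DNA methylation through replication. Fitted without a filter, Rfc3, Rfc4, Pold1, Pold3, Pole, Slbp and Uhrf1 had log2 fold changes from -0.58 (Rfc4) to 1.01 (Uhrf1), and none was called.

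**Figure D2:**
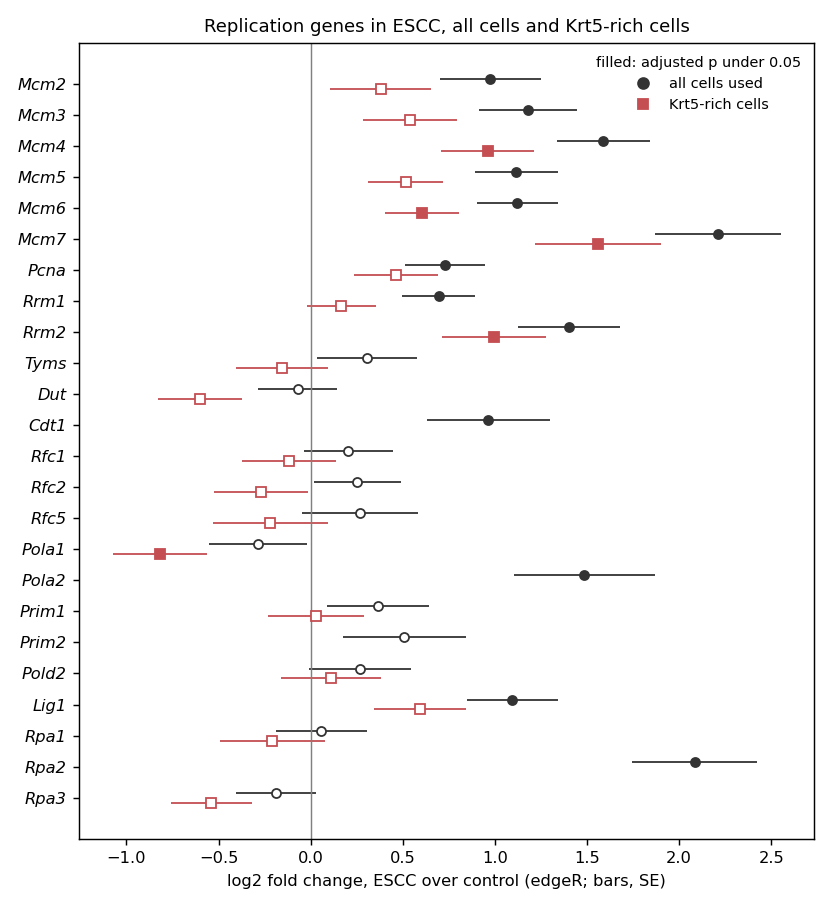
Log2 fold change of ESCC against control for the replication genes tested, in all epithelial cells and in Krt5-rich cells, with the standard error as bars and filled points for an adjusted p below 0.05. Helicase genes stand at 0.97 to 2.21 in all cells, and in Krt5-rich cells only Mcm4, Mcm6, Mcm7 and Rrm2 are called higher and Pola1 lower among the genes tested there.

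The share of cells with basal keratin moved with the same comparison. Cells were called Krt5-rich where Krt5 made up at least 0.3% of their UMIs and exceeded Krtdap, and these were 82.2 to 92.5% of cells in ESCC mice and 50.6 to 74.3% in control mice. The basal list (Krt5, Krt14, Krt15, Col17a1, Itgb4, Itga6, Trp63 and Dst) was at 21413 to 27013 CPM in control Krt5-rich cells and at 2065 to 5815 CPM in control Krtdap-rich cells. In ESCC mice it was at 22438 to 29380 CPM in Krt5-rich cells and at 3860 to 21790 CPM in Krtdap-rich cells. Krt5 is on this list and also sets the gate, so part of the gap between these cells is given by their choice. In control mice Krt5 alone was at 7338 to 9530 CPM in Krt5-rich and at 414 to 1139 CPM in Krtdap-rich cells. Krt5-rich cells also differed between the groups in other markers. Krt14 was at 2657 to 4781 CPM in control and at 5802 to 13122 CPM in ESCC Krt5-rich cells, without overlap. The list of 8 superficial markers was at 8455 to 14275 and at 3610 to 6415 CPM, also without overlap. Not every marker of these lists separated the groups in that way. Trp63, of the basal list, was at 308 to 753 CPM in control and at 344 to 437 CPM in ESCC Krt5-rich cells. Krtdap, of the superficial list, was at 93.8 to 766 and at 682 to 1869 CPM. The part of these differences in the results within Krt5-rich cells was not tested. The comparison was therefore repeated within Krt5-rich cells.

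Within Krt5-rich cells 5 replication genes were called, with Mcm4, Mcm6, Mcm7 and Rrm2 higher and Pola1 lower in ESCC, and the summed level overlapped between the groups. The sum was 1689 to 2316 CPM in controls (mean 1916 ± 225, SD, n = 6) and 1979, 2481 and 2248 CPM in ESCC 8M, 17F and 17M (mean 2236 ± 251, SD, n = 3), and the groups overlapped. These means depend on the scaling, since the TMM factors were 1.02 to 1.08 in control and 0.872 to 0.914 in ESCC mice. Of the 39 genes, 20 passed the filter, and 4 were called higher and 1 lower, where 15.4% of 4372 genes were called higher and 15.1% lower, so the count lay near that of all genes. The median log2 fold change was 0.14 over the 20 genes and -0.03 over all genes, and 12 of the 20 were positive. With no filter, 8 of 38 genes were called higher and 1 lower, where 9.27% of 14642 genes were called higher and 4.74% lower.

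The 4 genes called higher within Krt5-rich cells were Mcm7, Mcm4, Rrm2 and Mcm6. Mcm7 was at 10.1 to 64.7 CPM in controls (median 22.4) and at 74.5, 74.2 and 59.1 CPM in ESCC 8M, 17F and 17M. Only ESCC 17M lay inside the control range, whose highest value, control 3, rests on the shallowest control mouse, and the log2 fold change was 1.56 (SE 0.34, adjusted p = 0.0016). The control values rest on 22 UMIs over 6 mice. Mcm4 was at 53.1 to 124 CPM in controls (median 75.5) and at 95.8, 177 and 179 CPM in the ESCC mice, of which 8M overlapped the controls (log2 fold change 0.96, SE 0.25, adjusted p = 0.0062). Rrm2 was at 13.3 to 70.6 CPM in controls (median 42.6) and at 73.3, 99.7 and 102 CPM in ESCC, without overlap (0.99, SE 0.28, adjusted p = 0.011). Mcm6 was at 75.6 to 103 CPM in controls (median 84.0) and at 106, 153 and 125 CPM in ESCC, also without overlap (0.61, SE 0.20, adjusted p = 0.026).

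**Figure D3:**
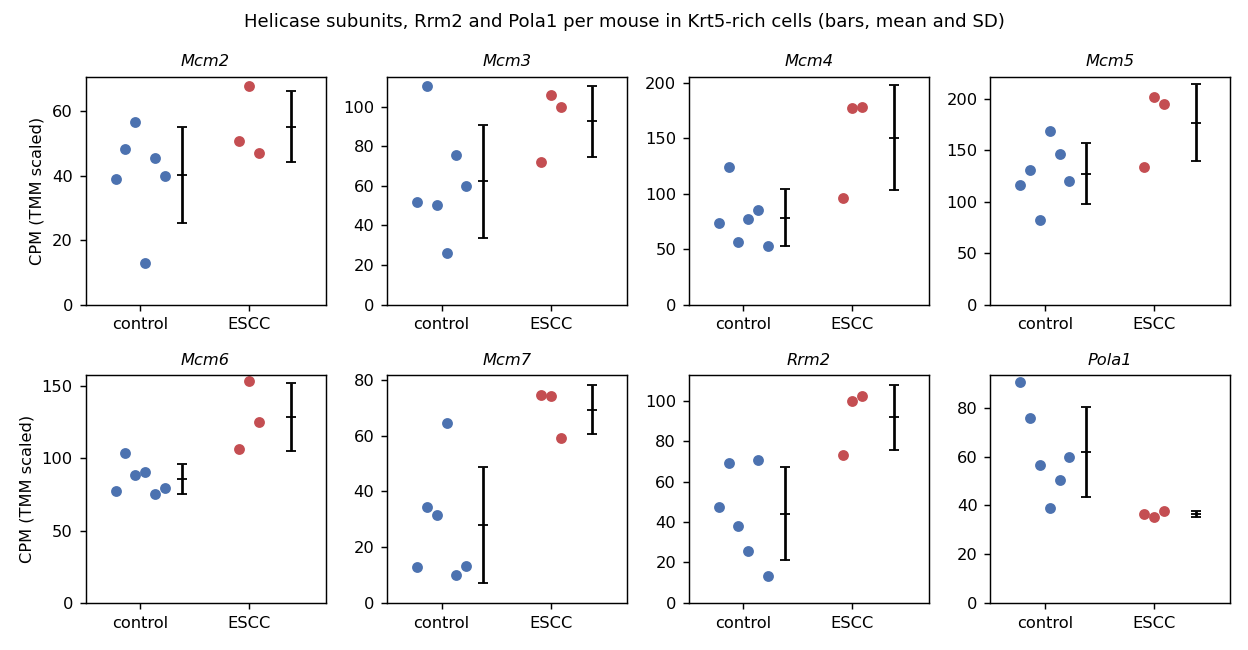
Level in CPM of the 6 helicase genes, Rrm2 and Pola1 in the Krt5-rich cells of each control and ESCC mouse (points), with the mean and SD of a group beside them. Mcm6 separates the groups (controls up to 103, ESCC from 106), Mcm4 and Mcm7 overlap in 1 ESCC mouse each, Mcm2, Mcm3 and Mcm5 were not called, and Pola1 is lower in all 3 ESCC mice (35.3 to 37.9) than in any control (from 38.8).

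The remaining helicase genes were not called, with a log2 fold change of 0.38 for Mcm2 (adjusted p = 0.31), 0.54 for Mcm3 (0.12) and 0.52 for Mcm5 (0.061), all adjusted p by edgeR. Mcm5 was called in the fit without a filter (0.59, adjusted p = 0.045). That fit also called Pola2 (1.33), Rpa2 (1.65) and Ung (1.40) higher, and its call for Gins4 just missed the threshold (1.13, adjusted p = 0.0501). Rpa2 was at 12.6 to 38.8 CPM in controls (median 18.7) and at 43.8, 70.7 and 54.0 CPM in ESCC, with no ESCC mouse in the control range.

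Pola1, the catalytic subunit of polymerase alpha, was the gene called lower within Krt5-rich cells. It was at 38.8 to 90.6 CPM in controls (median 58.2) and at 36.7, 35.3 and 37.9 CPM in ESCC 8M, 17F and 17M. Each ESCC mouse lay below each control, the closest being control 3, and the log2 fold change was -0.82 (SE 0.26, adjusted p = 0.0195). Without the filter Pola1 was not called and Rfc4, a clamp loader subunit, was (-1.16, adjusted p = 0.033), at 12.9 to 41.4 CPM in controls and 13.4 to 16.6 in ESCC. Dut (-0.60, adjusted p = 0.051) and Rpa3 (-0.54, adjusted p = 0.068) were negative and not called. The calls for Mcm6 and Pola1 rest on single mice. Mcm6 was no longer called without ESCC 17F (adjusted p = 0.138) or control 4 (0.052), and Pola1 was not called without ESCC 17F (0.104), ESCC 17M (0.0793), control 1 (0.108) or control 2 (0.0504), whereas Mcm7 was called in each of the 19 alternatives in which it was tested. With library 1 of each mouse alone, the log2 fold change was 0.46 for Mcm4 (adjusted p = 0.22) and 0.01 for Mcm6 (adjusted p = 0.98). With library 2 alone it was 1.58 for Mcm4 (adjusted p = 0.0009) and 1.30 for Mcm6 (adjusted p = 0.0021). Against young controls alone, Mcm4 (edgeR adjusted p = 0.0844), Rrm2 (0.0659) and Mcm6 (0.171) were not called. Against old controls alone, Rrm2 (edgeR adjusted p = 0.0788), Mcm6 (0.125) and Pola1 (0.336) were not called.

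Once depth was made equal, neither shares of cells nor mean UMIs per cell separated the groups. Each Krt5-rich cell thinned to 500 UMIs held on average 0.944 ± 0.077 replication UMIs in control mice (SD, n = 6). In ESCC mice it held 0.928 ± 0.086 (SD, n = 3), and the ranges overlapped (0.865 to 1.07 and 0.840 to 1.01). With each Krt5-rich cell thinned to 500 UMIs, 46.6 ± 3.37% (SD, n = 6 mice, 841 of 863 cells deep enough) of control cells and 49.3 ± 3.53% (SD, n = 3, all 1322 cells) of ESCC cells had at least 1 replication UMI, and the ranges overlapped (43.3 to 52.8% and 45.2 to 51.4%). Unthinned, the shares were 64.7% and 90.8%, at median depths over all cells used of 852 to 1382.5 UMIs per cell in control mice and 2804.5 to 3468.5 in ESCC mice. The Krtdap-rich cells, thinned in the same way, had such a UMI in 19.3% of control and 20.7% of ESCC cells. At least 3 UMIs were found in 11.1% of thinned control and 10.2% of thinned ESCC Krt5-rich cells. Cells in which Mki67 or Top2a was counted had more replication UMIs than other cells, with means of 1.89 and 0.70 per 500 UMIs in control mice and of 1.43 and 0.82 in ESCC mice.

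Levels of immune markers, fibroblast markers and ribosomal protein genes were also compared between the groups. In Krt5-rich cells of ESCC mice all 10 genes of the immune list had a UMI, at 65.9 to 91.1 CPM in all, against 2 of 10 and 0 to 29.5 CPM in controls, where Ptprc, Cd3e and Tyrobp were at 0. The 6 fibroblast markers summed to 93.5 to 536 CPM in control Krt5-rich cells (median 225) and to 14.1 to 150 CPM in ESCC (median 28.4), with overlap, and Col1a1, Col1a2, Lum and Pdgfra were at 0 in the controls. Ribosomal protein genes made up 16.4 to 19.7% of UMIs in ESCC, 5.93 to 9.24% in controls and 2.40 to 2.90% in EoE. The part of any of these in the results was not tested.

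The position of the genes along differentiation was read from control mice, in which Krt5-rich cells were compared with Krtdap-rich cells of the same mouse. Of 15 genes that passed the filter, all 15 were called higher in Krt5-rich cells, where 24.0% of 4485 genes were called higher and 23.1% lower, and their median log2 fold change was 2.96, against 0.05 over all genes. A gene could pass by its level in Krt5-rich cells alone, and with no filter 25 of 38 genes were called higher and 0 lower, where 8.8% of 14936 genes were called higher and 7.9% lower, and all 38 had a positive value. On the scale of this fit, the sum of the 39 genes was 1592 to 2144 CPM in Krt5-rich and 312 to 602 CPM in Krtdap-rich control cells.

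Values for single genes follow, and roles were not compared by a test. Mcm7 had 22 UMIs in control Krt5-rich cells and none in Krtdap-rich cells, which sets it at least 5.10-fold higher against a floor of 3 UMIs over the group. Mcm3 had 62 UMIs against 1, a ratio of 43.1 (95% counting interval 7.74 to 1703), and Mcm4 had 75 against 3, a ratio of 17.4 (5.95 to 84.3). Rrm1 was at 97.0 to 223 CPM in Krt5-rich and at 8.43 to 50.9 CPM in Krtdap-rich cells of control mice, without overlap (log2 fold change 2.96, SE 0.31, adjusted p = 6.7e-12). Dut followed with 3.52 (SE 0.39, adjusted p = 5.2e-11). Pcna, Rfc1, Rpa1 and Rpa3 had log2 fold changes of 1.03, 0.95, 0.96 and 0.97. Pold2 did not pass the filter, and its mean was 42.5 CPM in Krt5-rich and 45.6 in Krtdap-rich control cells, the latter raised by control 3 at 164 CPM.

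**Figure D4:**
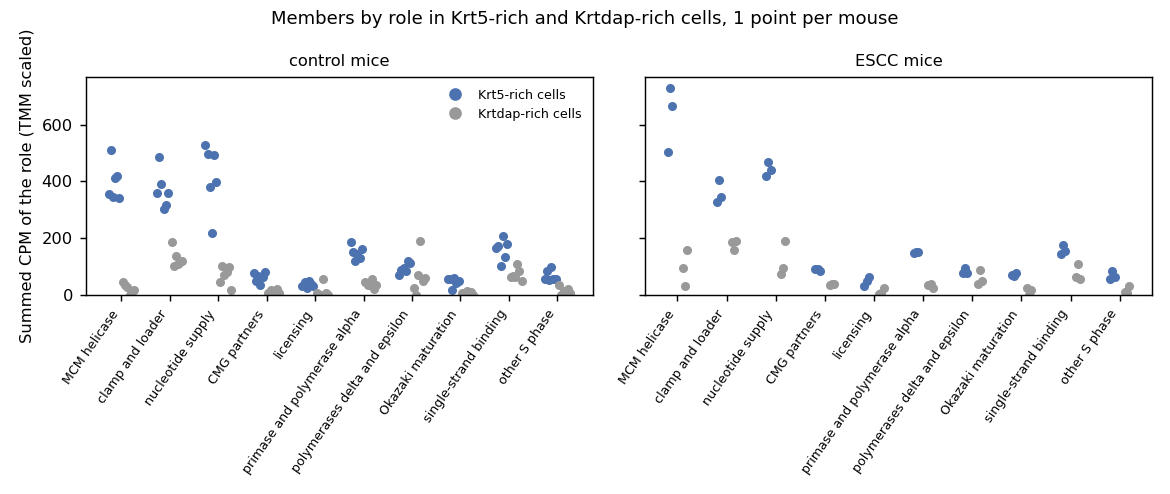
Level in CPM of replication genes, summed by role, in the Krt5-rich and Krtdap-rich cells of each control and ESCC mouse (1 point per mouse), on the scale of the joint fit. Over all 39 genes control mice stand at 1592 to 2144 CPM in Krt5-rich and 312 to 602 in Krtdap-rich cells, and ESCC mice at 1869 to 2322 and 566 to 791.

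In ESCC mice the sum was 1869 to 2322 CPM in Krt5-rich and 566 to 791 CPM in Krtdap-rich cells. Whether the difference between these cells was itself different in ESCC was tested by the interaction term, and 0 of 15 genes were called higher or lower by edgeR (3 at an unadjusted p below 0.05) and 0 by DESeq2, where 1.11% of all genes were called higher and 0.602% lower. The estimate was negative in 12 of the 15, with a median of -0.53, and Mcm3 (-2.70) had an adjusted p of 0.31. With the cells gated after thinning, 1 gene, Rrm1, was called lower.

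In EoE, the replication genes other than Pola2 were mostly too rare to count. The EoE cells used had 110 UMIs of the 39 genes in 4 mice, and 17 of the 39 genes had none. Of 24 genes tested, 1 was called higher and 6 lower, where 9.46% of 5866 genes were called higher and 25.1% lower, so the lower count lay at the share of all genes. With no filter, 1 of 39 genes was called higher and 6 lower, where 474 of 15110 genes were called higher and 1877 lower. The median log2 fold change was -1.81, or -1.47 over 23 genes with genes at 0 placed at their bound, against -0.75 over all genes. Krt5-rich cells numbered 11 in all EoE mice (2.94 to 12.3% of cells) with 10 replication UMIs, which is too few for a comparison, and the share of such cells and the level within them cannot be told apart here.

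The genes called lower in EoE were Rrm1, Dut, Rpa3, Pold2, Mcm5 and Mcm6. Rrm1 had 220 UMIs in the control mice and none in EoE, which sets it at least 4.63-fold lower against a floor of 3 UMIs over the EoE group (28.2 CPM). By the same floor Dut was at least 3.91-fold, Rpa3 at least 2.34-fold and Pold2 at least 1.45-fold lower. Mcm5 had 1 UMI in EoE against 128 in controls, a ratio of 8.08 (95% counting interval 1.45 to 319), and Mcm6 1 against 93, a ratio of 5.87 (1.05 to 232). Each rests on a single EoE UMI. Over all deposited cells Mcm5 had 7 EoE UMIs, a ratio of 2.87 (1.39 to 7.13), and was still called (log2 fold change -1.53, adjusted p = 0.0143), whereas Mcm6 had 11, a ratio of 1.33 (0.741 to 2.66), and was not called (-0.43, adjusted p = 0.50). In all, Mcm6 was not called in 11 of the 18 alternatives in which it was tested, and Mcm5 in 4 of 19. Floors and intervals cover counting error only. Mcm7 had no UMI in the EoE cells used either, but its pooled control level of 13.6 CPM lies below the floor, and no difference was detectable at this depth. Over all deposited cells Mcm7 again had 0 EoE UMIs, with a floor of 10.5 CPM that sets it at least 1.20-fold lower. There it was called lower (edgeR adjusted p = 0.0489).

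Pola2 (chr19:5940542-5964202, minus strand, GRCm38) stood apart from all other replication genes in EoE. It was at 885, 631, 0 and 573 CPM in EoE mice 9, 10, 11 and 12, from 29, 27, 0 and 12 UMIs, and at 6.46 to 34.2 CPM in controls and 29.2 to 49.7 in ESCC. The EoE mice other than mouse 11, which had 11 cells, lay above all controls and ESCC mice. The log2 fold change against controls was 5.35 (SE 0.42, adjusted p = 2e-11). A Pola2 UMI was found in 44 of 143 EoE cells (30.8%), 24 of 1493 control cells (1.61%) and 161 of 1472 ESCC cells (10.9%), and in no cell did it exceed 4 UMIs. In EoE it was found in 25 of 68 Krtdap-rich cells (36.8%) and in 3 of 11 Krt5-rich cells (27.3%), shares not taken at equal depth. EoE 9 and 10 had 21911 and 26809 UMIs in 19 and 25 Krtdap-rich cells, and 752 and 2860 UMIs in 2 and 7 Krt5-rich cells. EoE 11 and 12 had 4723 and 9425 UMIs in 8 and 16 Krtdap-rich cells, and 750 and 630 UMIs in 1 Krt5-rich cell each. Over all EoE cells used, median depths per mouse were 469.5 to 548 UMIs per cell. In ESCC, where depth per cell was higher, the shares were 12.0% of Krt5-rich and 2.34% of Krtdap-rich cells. Without Pola2, the summed level in EoE was 244 to 600.3 CPM.

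With the EoE cells outside the limits added, Pola2 was higher still and Prim2, a primase subunit of the same complex, was called too. Over all deposited cells of EoE mice 9, 10, 11 and 12, Pola2 had 102, 65, 47 and 64 UMIs and Prim2 had 83, 35, 23 and 29. Prim2 was at 1032, 465, 372 and 420 CPM in these mice, against 9.01 to 27.3 CPM in controls and 22.1 to 24.7 in ESCC, and every EoE mouse lay above every other mouse. In that fit 3 of 25 replication genes were called higher, Pola2 (6.10, adjusted p = 1.2e-15), Prim2 (5.13, adjusted p = 5.1e-13) and Rpa2 (1.83), where 21.5% of 5954 genes were called higher, and 8 were called lower, where 29.3% were. Of the 170 Prim2 UMIs only 5 lay in cells within the limits, and there Prim2 was not called (1.39, adjusted p = 0.15). The other 37 genes summed to 545 to 995 CPM in EoE and to 1015 to 1656 CPM in controls.

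**Figure D5:**
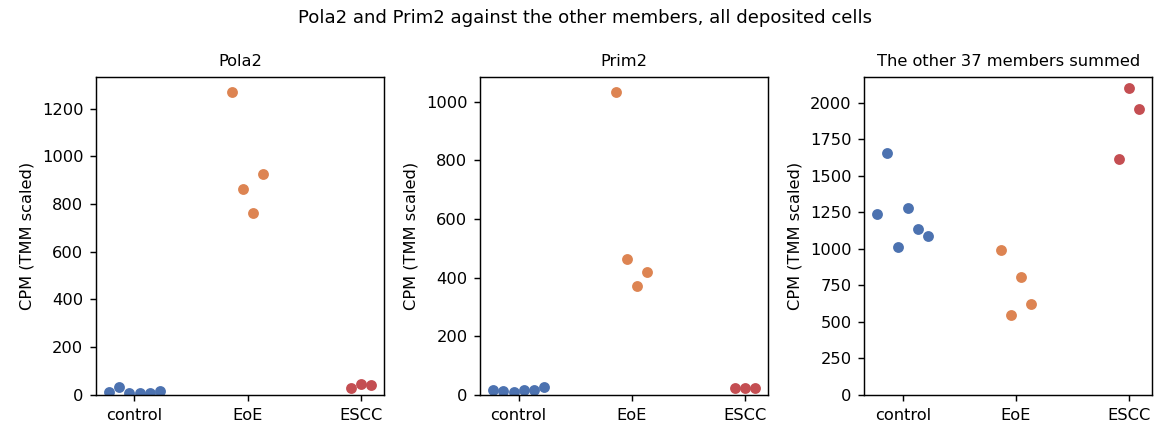
Level in CPM, over all deposited cells of each mouse (1 point per mouse), of Pola2, of Prim2 and of the other 37 replication genes together. Pola2 and Prim2 are high in all 4 EoE mice, with Prim2 at 372 to 1032 CPM against 9.01 to 27.3 in controls, while the other 37 genes lie lower in EoE (545 to 995) than in controls (1015 to 1656).

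Set against each other directly, ESCC and EoE mice share no controls, and 12 of 24 genes were called higher and 1 lower in ESCC than in EoE, where 30.0% of genes were called higher and 11.7% lower. The gene called lower was Pola2. A gene could pass the filter through control or ESCC mice alone, and with only ESCC and EoE mice in the fit 1 of the 39 genes was tested. With no filter, 16 of 39 genes were called higher and 1 lower, where 2379 of 15110 genes were called higher and 611 lower. Rrm1 was at least 7.58-fold, Dut at least 3.69-fold and Mcm7 at least 2.31-fold higher in ESCC by the floor of 3 UMIs. The comparisons of either disease with controls used the same 6 control mice and are not set against each other for that reason.

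No replication gene was called with age in controls. Of 17 genes tested between 3 old and 3 young control mice, 0 were called in either direction by edgeR and 0 had an unadjusted p below 0.05, DESeq2 also called 0, and 0.0777% of 5149 genes were called higher and 0.0194% lower in old mice. Pold2 had the largest estimate (0.73, SE 0.41), with control 3, an old mouse, at 93.6 CPM.

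Fen1, which trims the flaps of Okazaki fragments, had no UMI in any control or ESCC mouse and 1 UMI in EoE mouse 10. In GRCm38, 1909 of its exonic bases (78.8%) overlap the gene Gm10143 on the opposite strand, and whether strand was used in counting is not given in the sources used here. Gins2 overlaps Gse1 on the opposite strand over 67.3% of its exonic bases, so its counts are uncertain too. The part of these overlaps was not tested.

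Other genes of the cell cycle were set beside these as lists chosen by function. Of the 51 further replication genes, 9 of 21 tested were called higher and 0 lower in ESCC over all cells (median 0.50), where 17.8% of all genes tested were called higher and 16.8% lower. Within Krt5-rich cells 2 of 17 tested were higher and 3 lower, shares near those of all genes tested (15.4% and 15.1%). There Topbp1 (1.08) and Tipin (0.77), both of the checkpoint at the fork, were higher, and Ccna2, the S phase cyclin (-0.69), Cdca7 (-0.87) and the histone chaperone subunit Supt16 (-0.76) were lower. The most counted of the other genes of that list, Ssrp1 (0.22), Usp1 (-0.03) and Pole3 (-0.07), were not called there. Of the 22 mitosis genes, 2 of 19 tested were called higher and 2 lower over all cells (median -0.26). Of the same list, 1 of 19 tested was called higher within Krt5-rich cells, Birc5, and 12 were called lower, among them Cenpf (-1.08) and Cenpe (-0.93), with a median of -0.88, beside 15.1% of all genes tested called lower. Top2a (-0.25), Mki67 (-0.24) and Ube2c (-0.66, adjusted p = 0.072) were not called. All 18 mitosis genes tested, of the 22 listed, were called higher in Krt5-rich than in Krtdap-rich control cells, where 24.0% of 4485 genes were. A mitosis gene too could pass the filter by its level in Krt5-rich cells alone.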

How the data were processed

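Libraries were sequenced from peeled esophageal epithelium of 6 control, 4 EoE and 3 ESCC mice. The deposited values are UMI counts per gene and cell, which the authors made with UMI-tools 1.0.0, STAR 2.7.3 on GRCm38 and featureCounts, without normalization, keeping the same number of cells per condition. Here the counts of a mouse's libraries were summed over cells within 250 to 3500 genes and 100 to 9500 UMIs, without cells in which non-epithelial markers (at least 3 UMIs) outnumbered epithelial ones. Sums were compared in edgeR 4.0.16 (R 4.3.3) by its quasi-likelihood test after TMM scaling and filterByExpr, with Benjamini-Hochberg adjustment and a threshold of 0.05, with DESeq2 1.42.0 as an alternative. The 3 groups shared a fit for all cells. Krt5-rich and Krtdap-rich sums were paired by mouse, since both come from 1 animal, so no check of replicate numbers was needed. Cells were thinned to 500 UMIs for shares of cells, in scanpy 1.11.5, numpy 2.4.6 and pandas 2.3.3. Scrublet called 51 doublets (1.133% of cells), which were kept in the main results. Normalization, filter, cells, gate, libraries and each mouse left out were varied. Alternatives with 1 library per mouse and without Pola2 were added after the data were seen. The procedure was tested on simulated data with known fold changes. Nothing in the labels says that mice were handled in batches, and any batch that went with a condition cannot be told apart from it. Shared barcodes between libraries of different mice numbered 45 over 222 pairs, at most 4 in a pair. Gene positions came from GENCODE M21 and promoters from RefSeq, both on GRCm38.

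The genes named are all 39, with the 5 most counted genes of the other replication and mitosis lists and any gene of the former called in Krt5-rich cells. The genes and lists were chosen with earlier results of these data known.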

Additional observations from a re-analysis of the deposited data

Results flagged for a closer look

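A single mouse stood apart from the rest of its group, by a gap test that flags about 1 in 20 groups by chance, in 7 values. Groups tested in this way numbered 39. In controls over all cells, control 2 was highest for Mcm3 (87.9 CPM) and for Pcna (127 CPM), and control 3 was highest for Prim1 (74.9 CPM), Pold2 (93.6 CPM) and Rpa3 (112 CPM). Control 3 is the mouse with the fewest UMIs among controls (111043). Over all deposited cells, EoE mouse 9 was highest for the summed replication genes (3295 CPM) and for that sum without Pola2 (2027 CPM), and without Pola2 and Prim2 it was at 995 CPM, beside 545 to 809 CPM in the other EoE mice.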

How the results depend on the processing

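No call for a replication gene was reversed under any alternative. Of 24 genes tested in ESCC over all cells, 13 were called higher. The count was 4 of 9 with library 1 of each mouse alone, where 595 of all 3568 genes tested were called higher. It was 8 of 11 with library 2 alone (661 of 3848). Mice thinned to equal UMIs gave 3 of 6 (336 of 2779), and young controls alone gave 8 of 33 (833 of 7971). When each mouse was left out, the count ran from 10 to 13, with 0 to 0 lower. DESeq2 size factors moved the median of all genes from 0.01 to 0.12 and the split of all calls from 1046 higher and 985 lower to 1313 and 761, with 13 replication genes higher. In EoE the count of higher genes (1 of 24) was 3 of 25 over all deposited cells, where 1278 of all 5954 genes tested were called higher. With controls and EoE alone in the fit it was 0 of 5 (495 of 3211). The lower count (6 of 24) was 3 of 11 with library 2, where 1079 of all 3848 genes tested were called lower. In the 2-group fit it was 3 of 5 (937 of 3211). With a mouse left out it was 3 to 6, at 3 without EoE 9, 10 or 11. Thinned to equal UMIs, no replication gene was left for EoE. ESCC against EoE (12 of 24 higher, 1 lower) gave 6 of 9 higher with library 1, where 1188 of all 3568 genes tested were. In the 2-group fit 0 of 1 tested was higher, and over deposited cells 2 of 25 were lower (1412 of 5954). With a mouse left out, 8 to 13 were higher and 1 to 1 lower. In Krt5-rich cells the count of higher genes (4) was 0 with library 1, with equal UMIs and with a gate of 1%, 2 with young controls and 8 without a filter, and 3 to 7 with a mouse left out, at 7 without ESCC 8M. The lower count (1 of 20) was 2 of 20 with all deposited cells (658 of all 4370 genes tested) or a gate of 0.1% (648 of 4598). A thinned gate gave 2 of 16 (608 of 3912), and young controls 3 of 31 (486 of 7119). Library 2 gave 0 of 7 (354 of 2257), and equal UMIs 0 of 4 (204 of 1878). Old controls gave 0 of 29 (516 of 7046), and a gate of 1% gave 0 of 3 (228 of 1238). With a mouse left out the lower count was 0 to 2, at 2 without control 3 or 4. Krt5-rich against Krtdap-rich cells (15 of 15) gave 7 of 7 with library 1, where 644 of all 2713 genes tested were called higher. Library 2 gave 5 of 5 (702 of 2554), and a gate of 1% gave 4 of 4 (576 of 2469). Without a filter 25 of 38 were called (1314 of 14936). With a mouse left out the count was 9 to 16, at 9 of 12 without control 1. Without the replicate block it was 15 of 15. The interaction gave 1 of 15 lower with a thinned gate, where 42 of all 4551 genes tested were called lower. For the lists of other replication and mitosis genes no alternative is given. Unthinned shares of Krt5-rich cells with a replication UMI were 64.7% in control and 90.8% in ESCC mice. The mean summed level in EoE was 2270 CPM over deposited cells, with Pola2 counted. Over the cells used it was 430 CPM without Pola2. The ESCC mean was 1828 CPM by total UMIs. With library 1 or 2 alone or with equal UMIs, fewer genes were tested, and the cause of the other changes was not tested. No paired analysis was possible because groups of different mice share no animals, other than between cells of the same mouse. Depth limits EoE most, where 3 UMIs over the group equal 28.2 CPM.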

Other observations

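The genes whose level followed that of the 39 summed replication genes most closely over the 13 mice were Prdx1, Anp32b and Enah (Pearson r of log2 CPM 0.96 each), then Hint1, H2-K1, Slc3a2, Txn1, Rps25, Gclm and Rps9 (down to 0.95), among 5325 genes with at least 200 UMIs. With Pola2 left out of the sum, the nearest were Cd63, Tcof1, Shmt1, Cdc42ep4, Ppic, Tspan3, Krt14, Hells, Slc7a5 and Mtap (0.98 each). The 13 mice fall into 3 conditions that differ in depth and in the share of Krt5-rich cells, and likeness within a condition was not tested.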
